A study of Mus musculus with 8 samples.

Results

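The genes described here are brakes on cell division that were measured in mouse liver before and during regeneration. They are the 7 cyclin-dependent kinase inhibitors Cdkn1a, Cdkn1b, Cdkn1c, Cdkn2a, Cdkn2b, Cdkn2c and Cdkn2d, and the 3 growth arrest genes Gadd45a, Gadd45b and Gadd45g. Every probe set whose platform annotation gave exactly 1 gene symbol from these 10 genes was taken, without regard to its values, which gave 14 of the 45037 probe sets that are not controls. A probe set, the unit of an Affymetrix array, is a group of short oligonucleotides against 1 transcript or, for some, several transcripts. Of the 14, 12 probe sets of 8 genes were bright enough to be tested, out of 30525 in all. The probe sets of Cdkn2a and Cdkn2b were not.

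The study asked what the antiproliferative protein Tob1 does in liver regeneration, and the liver RNA came from male C57BL/6 mice aged 7 to 10 weeks. Wild type mice and Tob1 null mice were each killed either unoperated (0 h) or 24 h after hepatectomy, in which the median and left lateral lobes were tied off. Each group had 2 arrays, and each array held RNA pooled from 3 animals. The labels name a null line with no tissue-specific driver, no sham-operated group was analysed here, and the 24 h groups therefore differ from the 0 h groups by surgery and anaesthesia as well as by lost liver mass. Since an array averages 3 animals, the spread between arrays is a spread between pools, and in whole liver fewer cells of a type and less RNA per cell cannot be told apart.

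Cyclin-dependent kinases drive the cell cycle when bound to cyclins. The CIP/KIP proteins p21 (Cdkn1a), p27 (Cdkn1b) and p57 (Cdkn1c) bind the cyclin-kinase pair and block above all the cyclin E and cyclin A kinases, while the INK4 proteins p16 (Cdkn2a), p15 (Cdkn2b), p18 (Cdkn2c) and p19 (Cdkn2d) bind Cdk4 and Cdk6 alone and keep D cyclins off them. Cdkn2a also encodes ARF, which protects p53 by holding back its ubiquitin ligase Mdm2. The GADD45 proteins are small stress-induced proteins that bind p21, PCNA and Cdk1 and activate the kinase Map3k4 upstream of p38 and JNK. After hepatectomy, hepatocytes of the remaining lobes leave quiescence and divide, and in mouse liver p21 is known as a restraint on that division, p27 as an inhibitor of quiescent hepatocytes that is removed largely by protein degradation.

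The promoter sequences of the 4 genes that passed a test below are shown first, since they differ in the elements they hold. The 250 bases before an annotated start were taken from RefSeq on GRCm38.p6, in which 9 of the 10 genes had an entry, with 12 start sites between them. Capitals mark matches on either strand. The letters searched were TATAAA for the TATA box, CCAAT for the CCAAT box, GGGCGG for the GC box and TGACGTCA for the cyclic AMP element (CRE). Sites of STAT proteins were searched as TTCNNNGAA, those of forkhead (FOX) proteins as TGTTTAC, the E-box as CACGTG, and those of E2F as TTTGGCGC and TTTCCCGC. The consensus decamer of p53 was searched by its degenerate letters. Each sequence is written 5′ to 3′ along the gene's strand and ends at the base before the start.
Cdkn1a, upstream start, chr17:29090729-29090978, plus strand: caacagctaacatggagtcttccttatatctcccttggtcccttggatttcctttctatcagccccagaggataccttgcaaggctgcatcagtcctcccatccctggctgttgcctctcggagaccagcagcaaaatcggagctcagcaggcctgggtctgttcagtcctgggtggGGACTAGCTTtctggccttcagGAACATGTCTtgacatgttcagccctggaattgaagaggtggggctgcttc
Cdkn1a, downstream start, chr17:29093519-29093768, plus strand: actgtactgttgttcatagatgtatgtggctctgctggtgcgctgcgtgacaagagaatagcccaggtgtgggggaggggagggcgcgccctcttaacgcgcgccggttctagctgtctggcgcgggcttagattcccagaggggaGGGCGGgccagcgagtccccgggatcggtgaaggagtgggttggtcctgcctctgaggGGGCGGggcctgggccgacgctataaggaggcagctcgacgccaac
Cdkn1b, chr6:134920151-134920400, plus strand: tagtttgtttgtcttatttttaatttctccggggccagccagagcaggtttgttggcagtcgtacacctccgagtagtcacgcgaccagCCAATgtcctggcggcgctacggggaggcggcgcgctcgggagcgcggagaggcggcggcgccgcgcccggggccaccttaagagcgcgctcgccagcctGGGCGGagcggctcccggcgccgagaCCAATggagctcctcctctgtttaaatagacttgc
Cdkn2c, upstream start, chr4:109666757-109667006, minus strand: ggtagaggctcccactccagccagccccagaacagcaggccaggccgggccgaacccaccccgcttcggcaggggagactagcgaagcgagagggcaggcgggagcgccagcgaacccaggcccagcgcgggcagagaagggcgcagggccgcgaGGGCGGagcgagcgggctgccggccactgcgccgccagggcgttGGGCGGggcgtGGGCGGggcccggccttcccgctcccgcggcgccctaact
Cdkn2d, chr9:21291210-21291459, minus strand: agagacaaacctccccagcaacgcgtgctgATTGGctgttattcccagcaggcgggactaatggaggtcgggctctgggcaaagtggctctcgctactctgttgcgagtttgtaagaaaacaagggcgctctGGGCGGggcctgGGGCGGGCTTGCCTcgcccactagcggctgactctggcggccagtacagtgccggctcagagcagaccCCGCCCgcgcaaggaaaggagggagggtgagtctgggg

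The upstream Cdkn1a window held the p53 decamer at -73 to -64 (GGACTAGCTT) and again at -51 to -42 (GAACATGTCT), counted from the start. The downstream Cdkn1a window held neither, and had a GC box at -104 and another at -46. The Cdkn1b window had CCAAT at -161 and -35 with a GC box between them, and the Cdkn2c window had 3 GC boxes and no other match, while its downstream start, not shown, had none. The Cdkn2d window had CCAAT on the reverse strand, 3 GC boxes and a p53 decamer match (GGGCTTGCCT) that overlaps a GC box by 2 bases. Among all 32851 promoter windows of this length, 7.13% held the p53 decamer, 32.7% the GC box and 33.8% CCAAT, so that the last 2 are common. Of the genes that did not pass a test, Gadd45b and Gadd45g each had an E-box (6.02% of all windows), CCAAT and a TATA box (12.4%), Gadd45a had a p53 decamer match, Cdkn2b the CRE (1.55%), and 1 of the 2 Cdkn2a windows had TTTCCCGC (0.895%). No window of these genes held the STAT, FOX or TTTGGCGC letters, which 7.02%, 3.17% and 0.417% of all windows held. These matches describe the letters only, and occupancy was not measured here.

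Before the members, the arrays were checked as follows. Signals are log2 values after quantile normalisation, a step that gives all arrays the same distribution. A probe set was tested if it exceeded the 40th percentile of its array (3.60 as a limit on this scale) in at least 2 arrays. The liver label fitted its markers, as 7 of 7 hepatocyte genes lay above that limit in all arrays. The Tob1 probe sets did not settle the genotype label: 1423176_at read 10.50 ± 0.05 (mean ± SD, n = 2 arrays, as throughout) in wild type and 11.07 ± 0.05 in null-labelled liver at 0 h, and 1440844_at read 4.61 ± 0.83 and 3.35 ± 1.0, with neither difference past the threshold (limma adjusted p = 0.421 and 0.621). The labels do not say which part of Tob1 was deleted, so every genotype direction below rests on the labels.

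Cdkn1a was the member with the clearest change, and it was seen by 1 of its 2 probe sets. On 1424638_at, wild type liver read 6.33 and 5.43 in the 0 h arrays and 9.81 and 8.36 at 24 h. Null-labelled liver read 5.38 and 5.76 at 0 h and 8.27 and 9.41 at 24 h. All 4 pools at 24 h lay above all 4 pools at 0 h, the lowest at 8.27 against the highest at 6.33, and the genotypes overlapped at each time. The signal rose by 3.20 ± 0.61 (log2 difference ± SE) in wild type and by 3.27 ± 0.61 in null-labelled liver, and by 3.24 ± 0.43 as the mean of both, a 9.43-fold increase (limma adjusted p = 0.0445, 0.0319 and 0.00753 over the 30525 probe sets). The mean response passed under all 18 other settings and left-out arrays tried, between 2.87 and 3.60. Among these settings, the looser threshold of 0.1 on the same fit could not have failed. The call within a genotype is less firm: it was lost without any 1 of the 8 arrays in wild type (values of 2.48 to 3.93, adjusted p of 0.0532 to 0.178), and in null-labelled liver without any array other than the 2 wild type 24 h arrays (2.70 to 3.84, adjusted p of 0.0393 to 0.140).

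The second Cdkn1a probe set, 1421679_a_at, is the brighter by mean signal and did not follow the first. Its values were 7.81 and 6.78 in wild type at 0 h, 8.04 and 8.49 in wild type at 24 h, 6.76 and 8.13 in null-labelled liver at 0 h, and 7.08 and 8.23 in null-labelled liver at 24 h. The wild type arrays were apart and the null-labelled arrays overlapped between the times, and pools of the same group differed by more than 1 log2 unit in 3 of the 4 groups. Its mean response was 0.59 ± 0.44 (limma adjusted p = 0.369). Within each array, 1424638_at minus 1421679_a_at was -1.64 ± 0.49 in the 4 arrays at 0 h and 1.0 ± 0.80 in the 4 arrays at 24 h (SD). That shift of 2.65 is given as a description, without a p-value, since the comparison was chosen after its values were seen. The files do not say which part of the Cdkn1a transcripts each probe set reads, and why they differ was not tested.

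Cdkn1b, which encodes p27, fell by a small amount on its brighter probe set. On 1434045_at the wild type arrays read 7.73 and 7.68 at 0 h and 7.39 and 7.41 at 24 h, and the null-labelled arrays read 8.01 and 8.11 at 0 h and 7.71 and 7.59 at 24 h. Within each genotype the 24 h arrays were the lower, but the null-labelled 24 h arrays overlapped the wild type 0 h arrays, so that the order of group means ran from null-labelled 0 h through these 2 groups down to wild type 24 h. The mean response was -0.36 ± 0.09 (limma adjusted p = 0.0392), made of -0.30 ± 0.13 in wild type and -0.41 ± 0.13 in null-labelled liver, neither of which passed (adjusted p = 0.206 and 0.0941). The dimmer probe set, 1419497_at, ranged from 5.34 to 5.90 over the 8 arrays, with a mean response of -0.13 ± 0.16 (adjusted p = 0.569). Cdkn1b was lost in every fit without 1 array (adjusted p of 0.0521 to 0.119), and was -0.28 (adjusted p = 0.0901) on the deposited values without normalisation and -0.17 (adjusted p = 0.350) with arrays centred on their medians.

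Cdkn1c, the imprinted gene of p57, was near the limit of detection. It read 4.20 and 3.92 in wild type at 0 h and 3.07 and 2.86 at 24 h, against 3.89 and 1.5 and then 2.56 and 2.40 in null-labelled liver. All 4 arrays at 24 h lay below the limit of 3.60, and so did 1 of the 4 arrays at 0 h, the second null-labelled pool. The mean response of -0.65 ± 0.50 did not pass (limma adjusted p = 0.382). It was -1.25 with an adjusted p of 0.0210 without the second null-labelled 0 h array, and -0.06 without the first.

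**Figure D1:**
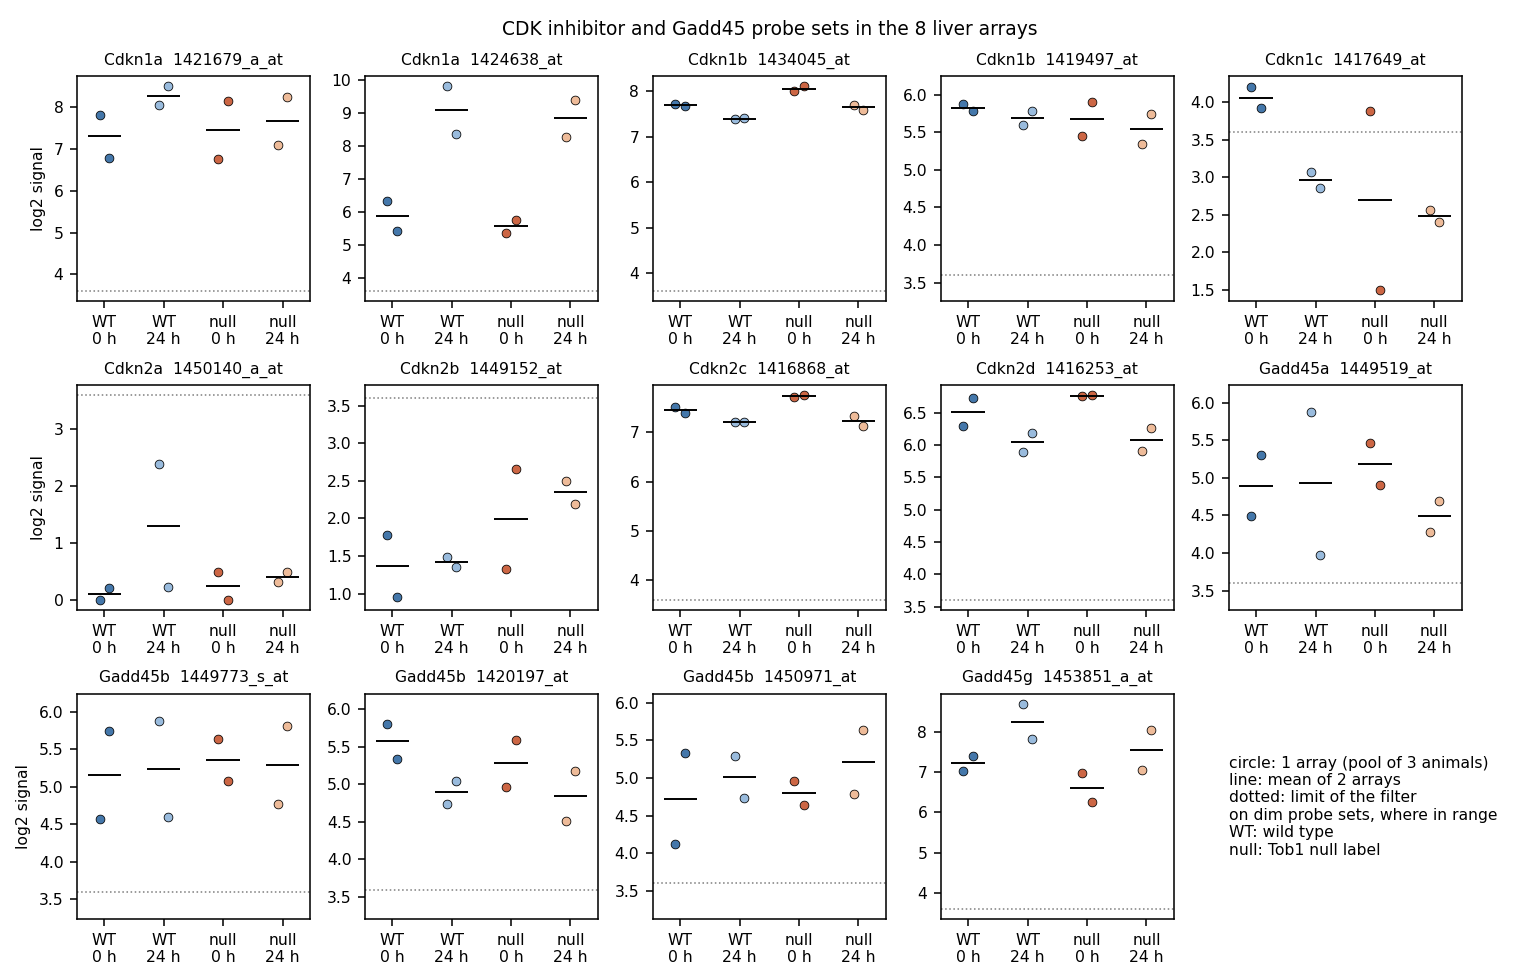
Normalised log2 signal of the 14 probe sets of the CDK inhibitors and Gadd45 genes, 1 panel each, with a circle for each array (a pool of 3 animals), a line for each group mean and a dotted line at the limit of 3.60 where it lies in range. In the Cdkn1a panel of 1424638_at all 4 arrays at 24 h sit above all 4 at 0 h, in that of 1421679_a_at they do not, and Cdkn2a and Cdkn2b lie below the limit throughout.

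Among the INK4 genes, the mRNAs of p18 and p19 fell and those of p15 and p16 stayed dim. Cdkn2c, the p18 gene, read 7.50 and 7.39 in wild type and 7.71 and 7.75 in null-labelled liver at 0 h, against 7.21 and 7.21 and then 7.33 and 7.13 at 24 h. The 4 arrays at 24 h were below the 4 at 0 h, the genotypes overlapped at 24 h, and at 0 h the null-labelled pools were the higher. The mean response was -0.37 ± 0.10 (limma adjusted p = 0.0438), with -0.24 ± 0.14 in wild type and -0.50 ± 0.14 in null-labelled liver (adjusted p = 0.337 and 0.0726).

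Cdkn2d, the p19 gene, read 6.30 and 6.72 in wild type and 6.76 and 6.77 in null-labelled liver at 0 h, against 5.90 and 6.19 and then 5.90 and 6.26 at 24 h. Again no 24 h array reached a 0 h array, although the gap between the closest ones was small. The mean response of -0.58 ± 0.15 was the larger of the 2 INK4 decreases (adjusted p = 0.0429), with -0.47 ± 0.22 in wild type and -0.69 ± 0.22 in null-labelled liver (adjusted p = 0.235 and 0.0945). Whether Cdkn2d fell more than Cdkn2c was not tested.

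Both INK4 calls are close to the threshold. Cdkn2c passed in 1 of the 8 fits without an array, that without the first null-labelled 24 h pool (adjusted p of 0.0448 to 0.127 over the 8), and Cdkn2d in none of them (values of -0.68 to -0.47, adjusted p of 0.0525 to 0.119). On the deposited values Cdkn2c was -0.28 and Cdkn2d -0.50 (adjusted p = 0.116 and 0.0569), and with median centring they were -0.17 and -0.40 (adjusted p = 0.329 and 0.178).

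Cdkn2a and Cdkn2b, neighbouring coding genes on chromosome 4 in the RefSeq annotation, lay below the limit in all 8 arrays. Cdkn2a was at or under 0.49 in 7 arrays, 2 of them at 0, which is the floor of the scale, and read 2.39 in the first wild type 24 h array. Cdkn2b ranged from 0.95 to 2.65, with group means of 1.36 and 1.42 in wild type and 1.99 and 2.35 in null-labelled liver at 0 h and 24 h. In a fit without the filter, the mean responses were 0.68 ± 0.48 for Cdkn2a and 0.21 ± 0.35 for Cdkn2b (limma adjusted p = 0.426 and 0.754). A change of either gene was not detectable at these signals.

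Of the GADD45 genes, Gadd45g had the largest difference between the times, and none passed the threshold. Gadd45g, the form also known as CR6, read 7.02 and 7.41 in wild type at 0 h and 8.68 and 7.81 at 24 h, and 6.98 and 6.25 in null-labelled liver at 0 h and 7.05 and 8.05 at 24 h. Within each genotype both 24 h pools were the higher, but the first null-labelled 24 h pool lay among the wild type 0 h pools. The mean response was 0.99 ± 0.33, a 1.98-fold difference (limma adjusted p = 0.0788), with 1.03 ± 0.47 in wild type and 0.94 ± 0.47 in null-labelled liver (adjusted p = 0.225 and 0.228). It passed under 3 of 19 alternatives. These were a stricter filter on dim probe sets, 16 added on the linear scale (limma adjusted p = 0.0422 and 0.0349), and the looser threshold of 0.1. Without 1 array the mean response of Gadd45g ran from 0.74 to 1.24.

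Gadd45a, the p53-regulated form, read 4.49 and 5.30 in wild type at 0 h and 5.87 and 3.98 at 24 h, and 5.46 and 4.90 in null-labelled liver at 0 h and 4.28 and 4.70 at 24 h. The wild type 24 h pools bracketed every other array, and the mean response was -0.33 ± 0.45 (adjusted p = 0.630). Gadd45b, the form known for its induction through NF-kB and TGF-beta, was read by 3 probe sets that did not move one way. Its brightest, 1449773_s_at, whose suffix marks probes that several transcripts share, read 4.58 and 5.74 in wild type at 0 h, 5.87 and 4.60 at 24 h, 5.63 and 5.08 in null-labelled liver at 0 h, and 4.77 and 5.81 at 24 h. These groups overlapped throughout, with a mean response of 0.00 ± 0.43. The other two probe sets of Gadd45b gave -0.56 ± 0.23 for 1420197_at (adjusted p = 0.135) and 0.35 ± 0.34 for 1450971_at (adjusted p = 0.491). For Gadd45a the wild type 24 h pools differed from each other by 1.9 log2 units.

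Counted over the 12 tested probe sets, 1 passed as higher and 0 as lower in wild type, where 2.64% of all 30525 probe sets passed as higher and 2.7% as lower (5.34% in all). In null-labelled liver 1 passed as higher and 0 as lower, beside 6.06% and 4.72% of all (10.8%). Within wild type the arrays of the 2 times were apart for 3 members upward and 6 downward, beside 29.8% and 29.7% of all probe sets, and within null-labelled liver for 2 upward and 4 downward, beside 29.7% and 30.6%. In the mean response 1 passed as higher and 3 as lower, beside 12.4% higher and 11.4% lower among all (23.8% together). The median of the 12 mean responses was -0.23, and that of all probe sets -0.02. Arrays at 24 h were apart from those at 0 h for 1 member upward and 2 downward when both genotypes were pooled, beside 14.8% and 13.9% of all probe sets. The members thus moved in both directions, and their share of calls is given as a description of 12 probe sets, of which Cdkn1c passed the filter through its 0 h values alone.

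**Figure D2:**
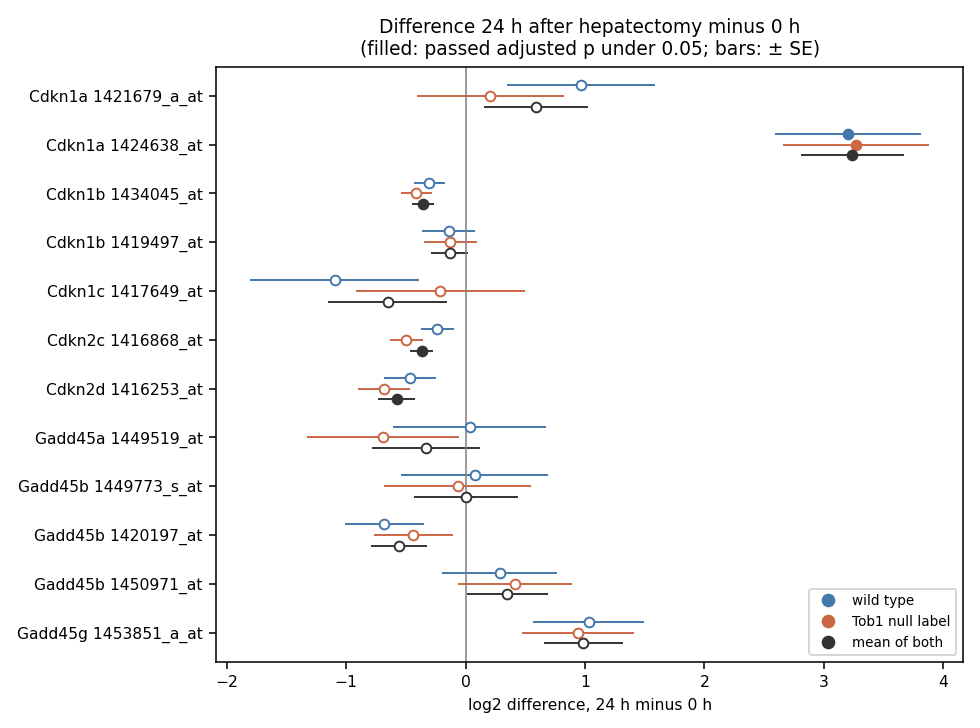
Log2 difference of 24 h minus 0 h for the 12 tested probe sets, in wild type, in null-labelled liver and as the mean of both, with bars of 1 SE and filled circles where the adjusted p is under 0.05. Cdkn1a 1424638_at stands at 3.20, 3.27 and 3.24, while the filled mean responses of Cdkn1b 1434045_at, Cdkn2c and Cdkn2d lie at -0.36, -0.37 and -0.58.

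The comparison of genotypes asked whether these brakes were set at another level where Tob1 is missing. At 0 h, 0 of the 12 probe sets passed, and 0% of all 30525 did (limma). At 24 h it was again 0 of 12 and 0% of all. At an unadjusted p under 0.05 there was 1 member at 0 h, Cdkn1b 1434045_at, and none at 24 h, beside 2779 and 3134 of all probe sets. Its null-labelled pools were above the wild type pools at both times, by 0.36 ± 0.13 at 0 h and 0.25 ± 0.13 at 24 h (adjusted p = 0.513 and 0.578).

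No genotype difference passed for the other CIP/KIP genes. Cdkn1a 1424638_at differed by -0.32 ± 0.61 at 0 h and -0.25 ± 0.61 at 24 h, and Cdkn1a 1421679_a_at by 0.14 ± 0.62 and -0.61 ± 0.62 (null-labelled minus wild type, limma adjusted p of 0.778 or more in all 4). The pools overlapped in each of these. At standard errors of 0.61 and 0.62, a genotype difference in Cdkn1a of the size measured was not detectable. Cdkn1c was lower in both null-labelled pools at both times, by 1.37 ± 0.71 at 0 h (difference of -1.37, adjusted p = 0.619) and by 0.48 ± 0.71 at 24 h (difference of -0.48, adjusted p = 0.857), at signals near or below the limit. The 0 h difference rests on single pools, at -2.56 without the first null-labelled 0 h array and -0.17 without the second.

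Cdkn2c and Cdkn2d were higher in both null-labelled pools at 0 h, by 0.28 ± 0.14 and 0.25 ± 0.22 (adjusted p = 0.607 and 0.763), and overlapped at 24 h with differences of 0.02 ± 0.14 and 0.04 ± 0.22. Gadd45g was lower in both null-labelled pools at 0 h, with a difference of -0.60 ± 0.47, and overlapped at 24 h at -0.69 ± 0.47 (adjusted p = 0.739 and 0.661), which ran from -0.96 to -0.24 and from -1.19 to -0.19 without 1 array. In all, pools were apart by genotype for 3 probe sets upward and 2 downward at 0 h, beside 22.2% and 24% of all probe sets, and for 1 upward and 1 downward at 24 h, beside 19.2% and 20.4%. The 3 upward members at 0 h are a share near that of all probe sets, and the others are below it.

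The responses of the 2 genotypes did not pass a test of their difference for any member, and 0% of all probe sets passed it (limma). At an unadjusted p under 0.05 it was 0 of the 12 and 2433 of all. The difference, null-labelled minus wild type, was 0.07 ± 0.86 for Cdkn1a 1424638_at, -0.11 ± 0.18 for Cdkn1b 1434045_at, -0.26 ± 0.20 for Cdkn2c and -0.22 ± 0.31 for Cdkn2d. For Cdkn1b its sign turned with median centring, to 0.04. The 3 members that fell had the larger decrease in null-labelled liver, by amounts within about 1.5 SE of 0. A p above the threshold does not show that the genotypes responded alike.

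**Figure D3:**
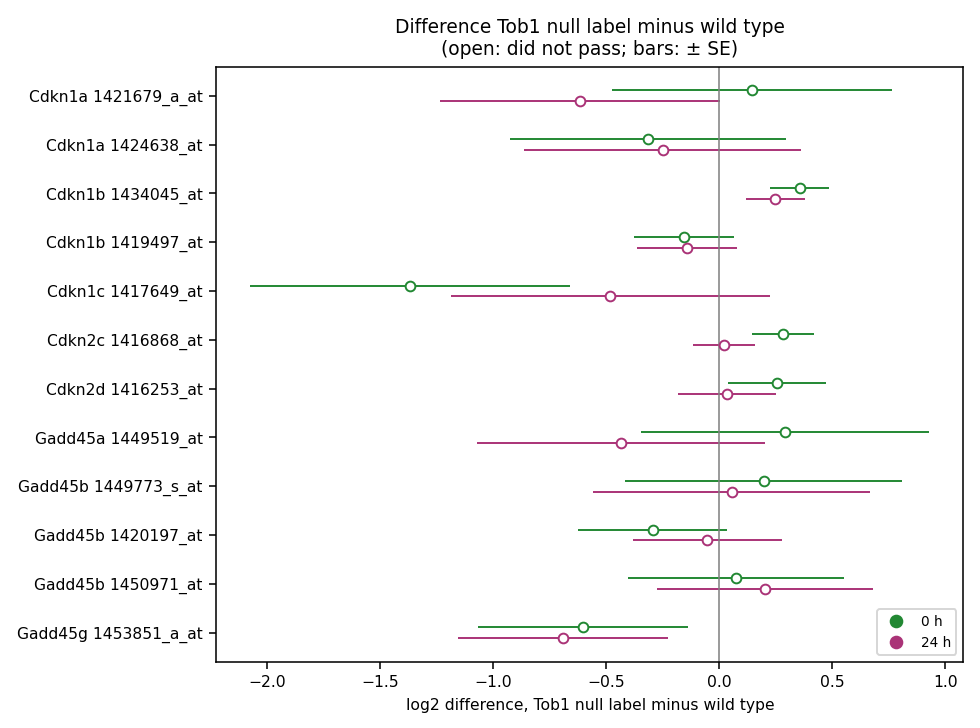
Log2 difference of null-labelled minus wild type liver for the 12 tested probe sets at 0 h and at 24 h, with bars of 1 SE and open circles because none passed. Cdkn1b 1434045_at lies above 0 at both times (0.36 and 0.25), and Cdkn1c (-1.37 at 0 h) has the widest bars.

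The kinases and cyclins that these inhibitors act on rose where they changed. Of 10 tested genes (brightest probe set per gene), 5 rose and 0 fell in the mean response, with a list median of 0.54, beside 12.1% higher and 13.1% lower among all 14450 genes and a median of -0.04. They were Ccne2 (2.08) and Ccne1 (0.64), the cyclin E partners of Cdk2, Ccnd1 (1.77) and Ccnd3 (0.50), the D cyclins that INK4 proteins keep off Cdk4, and Cdk4 itself (0.58). Cdk1 stood at 1.14 without passing (limma adjusted p = 0.0593), made of 0.07 in wild type and 2.21 in null-labelled liver, where it passed (adjusted p = 0.949 and 0.0425). The difference between those responses did not pass (2.14 ± 0.68, adjusted p = 0.601). The calls of Ccnd1, Ccnd3 and Ccne1 were each lost in some fits that left out 1 array. All of them were lost without the first wild type 24 h array. Ccna2, the cyclin of S phase, stood at -0.16 (adjusted p = 0.445). Of the pocket proteins and E2F factors, which the kinases act upon, 3 of 13 rose and 1 fell, with a median of 0.10. Rbl1 (p107) rose by 1.41, Tfdp1, the partner of E2F, by 0.93 and E2f3 by 0.82. By contrast Rbl2 (p130), the pocket protein of quiescent cells, fell, with a log2 difference of -0.92. Rbl1 lost its call in most fits that left out 1 array.

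Of 8 tested genes of the machinery that removes p27 protein, 4 rose and 1 fell, with a median of 0.21. Cks1b, the cofactor that presents p27 to the ligase, rose by 1.16, Skp2, the F-box protein that binds it, by 1.05, the conjugating enzyme Cdc34 by 0.56 and Cops5, which carries p27 out of the nucleus, by 0.40, while the scaffold Cul1 had a difference of -0.52. The 4 rises became 1, Cks1b, without the first wild type array of either time or without either null-labelled 0 h array, and 2 without the second wild type array of either time. The fall of Cul1 passed only without the second wild type 24 h array among the 8 fits that leave out 1 array. Protein was not measured, so these values say nothing of the amount of p27.

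Of the partners of GADD45 proteins and the stress kinases below them, 1 of 11 rose and 1 fell, with a median of -0.02. Pcna, the replication clamp that GADD45 and p21 proteins bind, rose by 1.02 in the mean response, from 0.43 in wild type and 1.60 in null-labelled liver (limma adjusted p = 0.228 and 0.0171), and the difference between those did not pass (1.16 ± 0.28, adjusted p = 0.584). Map2k6, a kinase that activates p38, had a difference of -1.32. Map3k4, the kinase that GADD45 proteins activate, stood at 0.06, and Ppp1r15a, also called Gadd34, at -0.53 without passing (adjusted p = 0.123).

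Of 19 tested transcription factors known to act on Cdkn1a, Cdkn1b or the Gadd45 genes, 0 rose and 4 fell, with a median of -0.02. Cebpa, a factor of mature hepatocytes whose protein binds p21, had a difference of -1.68, Foxo3, an activator of Cdkn1b, of -1.13, and the TGF-beta mediators Smad4 and Smad3 of -0.67 and -0.57. Klf6, an activator of Cdkn1a, stood at 1.48 with an adjusted p of 0.0710, and Myc, which represses Cdkn1a, at 0.31. Of 14 other p53 targets, 2 rose and 1 fell, with a median of 0.22. Phlda3 rose by 0.93 and Mdm2 by 0.46, Trp53inp1 had a difference of -0.70, and Eda2r stood at 0.79 (adjusted p = 0.0643). The Polycomb proteins that keep the Cdkn2a locus silent had 3 of 10 higher and 1 lower, with a median of -0.10. Ezh2 (1.23), Bmi1 (0.58) and Eed (0.49) rose and Cbx7 (-0.50) fell. In most fits that left out 1 array, Smad3, Mdm2, Trp53inp1, Eed and Cbx7 lost their calls.

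Over these 7 lists, 27 of 85 tested genes passed in the mean response, 18 as higher and 9 as lower. Among all 14450 genes, 12.1% passed as higher and 13.1% as lower, which is the background for each list. Whether any list departs from that background was not tested. Of the 85 genes, 0 passed in either genotype comparison or in the difference between responses, and 0 of all 14450 genes did. The members had no genotype call either. The count fell to between 15 and 25 when 1 array was left out, with no change of sign among the 27, and to 15 or 16 without any 1 of the 4 arrays at 0 h. Some of those smaller counts include genes outside the 27. The lists were chosen with earlier results of these data known, so their direction is not independent evidence.

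**Figure D4:**
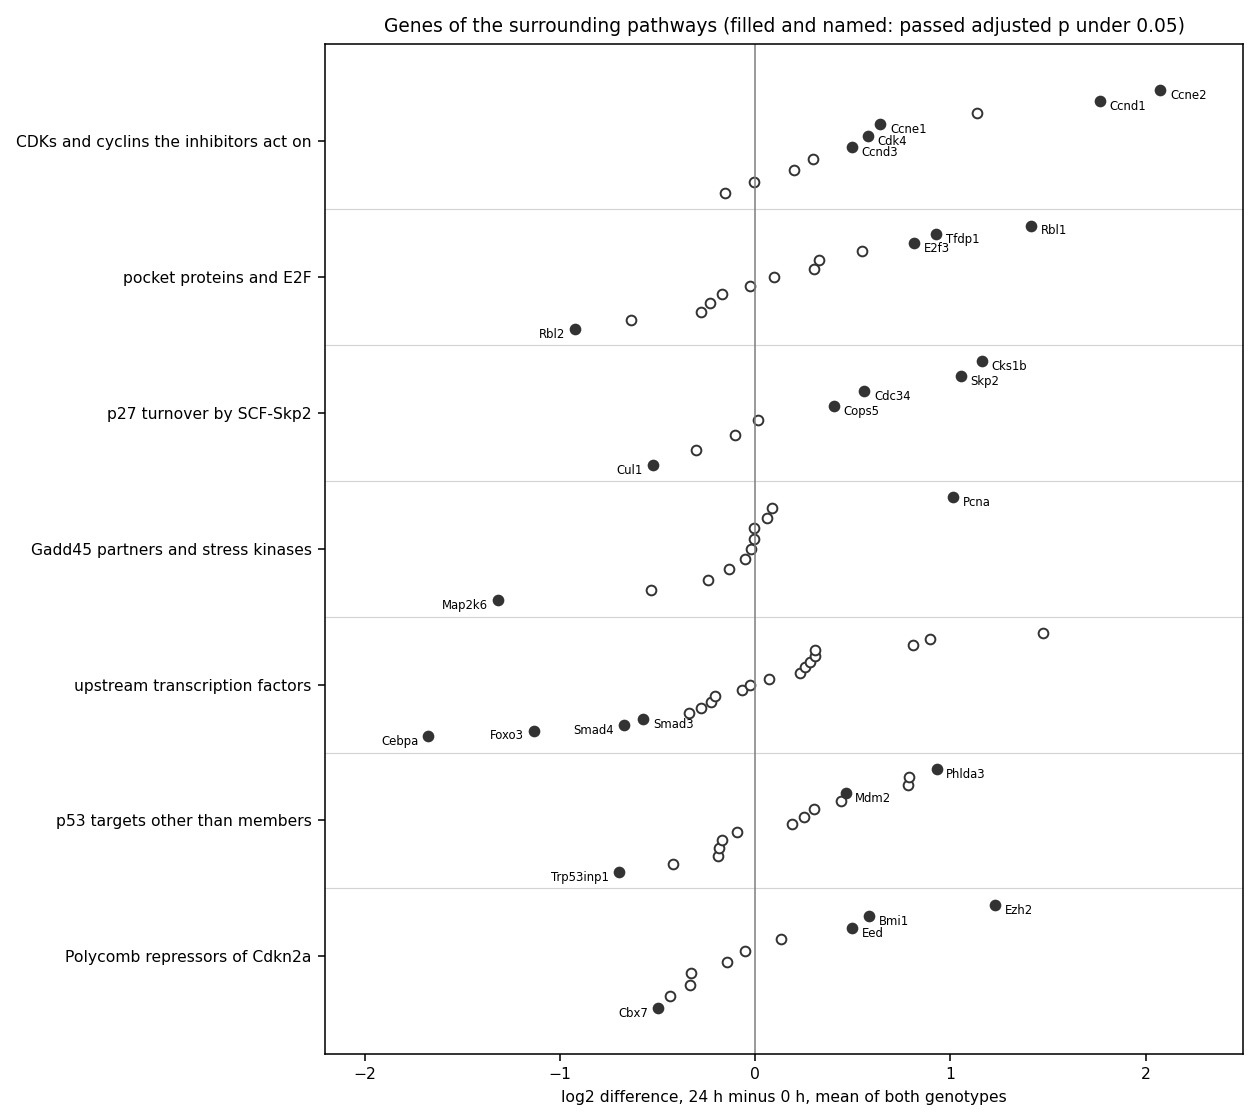
Log2 difference of 24 h minus 0 h, as the mean of both genotypes, for the 85 tested genes of 7 pathway lists, 1 circle per gene, filled and named where the adjusted p is under 0.05. The cyclins that passed lie to the right (Ccne2 at 2.08, Ccnd1 at 1.77), while Ccna2 (-0.16) does not. Cebpa (-1.68), Map2k6 (-1.32) and Foxo3 (-1.13) lie farthest to the left.

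Markers of other cells and RNA quality moved along with time. Of 5 neutrophil or monocyte markers, S100a8 (2.88), S100a9 (2.25) and Cd14 (2.11) rose in the mean response, while Ngp and Mmp8, which define neutrophil granules, stood at -0.57 and -0.18 without passing. The summed linear signal of the 5 at 0 h ran from 199.5 to 249.1 in wild type and 214.1 to 232.9 in null-labelled liver. At 24 h it ran from 300.1 to 935.6 and from 401 to 843.7. All 4 arrays at 24 h were thus above all 4 at 0 h, an order that Cdkn1a 1424638_at and 14.8% of all probe sets also had. Ngp alone had the reverse order, and Mmp8 overlapped. Of 10 macrophage markers, Marco (4.07) and Cd68 (1.26) rose, and Csf1r (-0.71) and Adgre1 (-0.52) fell, with sums of 2454 to 3495 over all arrays. Of 7 hepatocyte markers, Cps1 (-0.40), the first enzyme of the urea cycle, fell (limma adjusted p = 0.0437). The part of these cells in the members' results was not tested.

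Of the stellate cell markers 3 of 9 fell (Reln, Des and Col3a1), of the lymphocyte markers 2 of 6 fell (Nkg7 and Cd79a), and 1 endothelial marker of 8 (Pecam1) and 1 cholangiocyte marker of 4 (Sox9) rose. The 3′ minus 5′ difference of the beta-actin control, which grows as RNA is degraded, was 1.22 in wild type and 1.56 in null-labelled liver at 0 h, and 0.97 and 1.27 at 24 h (log2). It was thus higher in null-labelled liver at both times and lower at 24 h in both genotypes, with null-labelled 0 h highest and wild type 24 h lowest. The Gapdh control had the same extremes, 0.52 in null-labelled liver at 0 h and 0.07 in wild type at 24 h. So had the group means of all 3 members that fell, Cdkn1b 1434045_at, Cdkn2c and Cdkn2d, and the part of RNA quality in those results was not tested. These members were called for lower signal at 24 h, so part of that order was fixed beforehand. Its share among all probe sets was not counted.

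The genes most like each called member over the 8 arrays were found by the root mean square (RMS) difference of log2 values, after each probe set was centred on its own mean, among 14442 other genes. For Cdkn1b 1434045_at they were Ifi27 (0.061), Map3k12 (0.063) and Cxcl13 (0.069), where the member's own SD over the arrays was 0.24. For Cdkn2c they were Adamtsl1 (0.028), Kctd20 (0.047) and Hnf4a (0.063), against its SD of 0.22, and for Cdkn2d they were Igfbp2 (0.076), Fam126b (0.086) and Mcm3ap (0.088), against 0.34. For Cdkn1a 1424638_at, which was added because it is not the brighter probe set of its gene, they were Prr32 (0.35), Ccl6 (0.46) and Synpo (0.49), against an SD of 1.71. With 8 arrays in 4 groups, likeness mostly restates the group means, and nothing on shared control follows from it.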

How the data were processed

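Liver RNA was measured on 8 Affymetrix arrays, 2 for each of 4 groups. The deposited values are log2 signals, as read from the values themselves, and the authors' signal algorithm, scaling and genome build are not given in the sources used here. On the linear scale the trimmed means of 95.1 to 99.9 show that arrays were on a common scale, and 894 to 1275 values per array sat at 1, the floor.

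The deposited log2 values were quantile normalised after 64 control probe sets of 45101 were left out, since the array medians differed by up to 0.38. Probe sets above the 40th percentile of their array in at least 2 arrays were kept (30525). All 8 arrays entered 1 limma fit (version 3.58.1, R 4.3.3) with a mean per group (lmFit and eBayes, two-sided, 4 residual and 2.04 prior degrees of freedom), and p-values were adjusted by Benjamini-Hochberg over all 30525 probe sets. Rose and fell are used of an adjusted p under 0.05. Precision is limited by the number of arrays, and p-values measure the spread between pools. The fit was also run on simulated data as a check of the code, which says nothing of the calls reported here.

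Platform annotation gave 1 symbol to 34945 probe sets, several to 932 and none to 9160. Per-array values are given for each member's brightest probe set and each that passed. From each pathway list up to 4 genes with the smallest p are named, with others named after their values were seen. The members, lists and rules were chosen with earlier results of these data known. The p53 motif and the difference between the Cdkn1a probe sets were added after the data were seen. Same-numbered arrays did not deviate together (correlations of -0.17 to 0.06). That check cannot settle whether the numbers pair the arrays, and they were not taken as pairs in the main fit. Alternatives were other normalisations, filters, priors, weights, thresholds and probe set choices, a replicate block, and each array left out in turn.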

Additional observations from a re-analysis of the deposited data

How the results depend on the processing

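The Cdkn1a 1424638_at call in the mean response held under all 18 alternatives that test that probe set, of which the looser threshold of 0.1 could not have failed. The other counts of called members moved. In wild type the count of 1 became 0 with no filter, with a replicate block, with only the groups compared, with 1 probe set per gene and without any 1 array (0 in all 8 fits). In null-labelled liver the count of 1 became 0 with no filter, the replicate block, only the groups compared or 1 probe set per gene, 2 with 16 added on the linear scale, 4 with the 60th percentile filter, a trended and robust prior or an adjusted p under 0.1, and 0 to 1 without 1 array. In the mean response the count of 4 became 1 on the deposited values, with median centring and with no filter, 2 with the replicate block, and 1 to 2 without 1 array. The 27 called pathway genes became 17 with no filter and 15 to 25 without 1 array. Counts of 0 for genotype and for the difference between responses stayed 0 under all alternatives run. Among all probe sets, the wild type count of 1630 became 12 with no filter, 6 with the block, 0 with only the groups compared, 4000 with the 60th percentile filter and 4536 with the trended prior. The causes were not tested, except that 1 probe set per gene takes the brighter 1421679_a_at for Cdkn1a. That probe set's response in null-labelled liver, 0.21, ran from -0.47 to 0.89 without 1 array, and was below 0 without the first null-labelled 0 h array (-0.47) and without the second null-labelled 24 h array (-0.37).

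The replicate block pairs arrays by a number whose meaning is not stated. It kept Cdkn1a 1424638_at (limma adjusted p = 0.0203) and Cdkn2d (0.0372) in the mean response and lost Cdkn1b (0.0732) and Cdkn2c (0.0730). Because the 24 h groups correlated at -0.17, the block was also run with the wild type 24 h numbers exchanged, which gave counts of 0 in wild type, 1 in null-labelled liver and 1 in the mean response. Median centring moved the median of all probe sets to 0.11 in the null-labelled response and in the genotype difference at 24 h, and to 0.10 in the difference between responses. It turned the sign of 7 member values, none of them called. With 2 arrays a group, members near the background such as Cdkn1c, Cdkn2a and Cdkn2b have no usable precision.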
